A study of Mus musculus with 4 samples.

Results

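The SET1/MLL H3K4 methyltransferase genes were followed in double positive (DP) thymocytes with and without Tox4. The group comprised 10 genes of the 24984 genes in the deposited fragment count table, chosen by symbol: the 6 enzyme genes Setd1a, Setd1b, Kmt2a, Kmt2b, Kmt2c and Kmt2d, and the 4 genes of the core that all of these enzymes share, Ash2l, Wdr5, Rbbp5 and Dpy30. All 10 were in the table, and all 10 passed the minimum mean of 1 CPM (fragments of a gene per 1000000 fragments of the library). Nascent RNA was measured by TTchem-seq, in which RNA made during a pulse of 4-thiouridine is fragmented, enriched and sequenced, so that introns contribute to the signal of a gene. The WT libraries (n = 2, genotype Tox4;F/F) came from mice with floxed Tox4 alleles and no Cre, and the cKO libraries (n = 2, genotype Tox4;F/F;Lck+) from mice that also carried Cre. Both genotypes therefore had floxed alleles, on a C57BL/6 background, and no library with Cre alone was analysed here. Per the study's methods, Cre was driven by the proximal Lck promoter from an early thymocyte stage on, exons 4 to 6 of Tox4 were floxed and the mice were littermates 6 to 8 weeks old. How the DP cells of these libraries were isolated is not given in the sources used here.

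Methylation of lysine 4 on histone H3 (H3K4) marks active promoters and enhancers. SETD1A and SETD1B form the SET1 complexes, which place much of the trimethylation at promoters. KMT2A (MLL1) and KMT2B (MLL2) act with menin at selected promoters, the HOX genes among them, and KMT2C (MLL3) and KMT2D (MLL4) are known for monomethylation at enhancers. Each enzyme needs the core of WDR5, RBBP5, ASH2L and DPY30 for full activity. WDR82 belongs both to the SET1 complexes and to the PTW/PP1 phosphatase complex, in which it meets TOX4 and PNUTS.

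The libraries held between 38429786 and 48690591 fragments, and a member was counted with between 1160 and 28340 fragments in a library. In the deposited count of the gene, which does not single out the floxed exons, Tox4 was at 74.04 and 70.3 CPM in WT and at 59.3 and 57.2 CPM in cKO. The fall of -0.31 on the log2 scale (SE 0.10) passed 0.05 with DESeq2 (adjusted p-value 0.0453) and missed it with edgeR (adjusted p-value 0.153). The summed output of 10 DP markers was between 6031 and 6850 CPM, and among them Cd8a and Rag1 were called lower in cKO by DESeq2. Of the mature single positive markers reported here, Ccr7 was called lower in cKO by DESeq2, and Klf2 and S1pr1 were not called. Neither edgeR nor limma voom called Cd8a, Rag1 or Ccr7 (edgeR adjusted p-values 0.108, 0.291 and 0.164). Markers of B cells, erythroid cells and thymic epithelium (13 genes) did not exceed 1.58 CPM in any library, and those of myeloid cells (4 genes) did not exceed 9.21 CPM. WT replicate 1 stood apart in 2 respects. Xist was at 172 CPM there and at 2.36 CPM or less elsewhere, whereas Y-linked genes were near 0 there, although the study's methods describe littermates matched for sex. All 10 cell cycle genes and all 10 DP markers examined were lower in WT replicate 1 than in WT replicate 2. The sums of the cell cycle genes were 365 and 574 CPM in WT and 682 and 567 CPM in cKO, and 1 of them, Mybl2, was called higher by DESeq2 but not by edgeR (adjusted p-value 0.260) or limma voom. The part of these differences in the results for the methyltransferase genes was not tested. Without WT replicate 1, which leaves 1 WT library, the log2 fold changes of the members lay between -0.15 (Setd1b) and 0.14 (Dpy30).

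No member of the SET1/MLL group was called between genotypes. The DESeq2 Wald test was run over all genes, and a call required an adjusted p-value under 0.05, at least a 1.2-fold change and at least 1 CPM in the mean. It called 0 of 10 members. Of the 11625 genes at that level it called 3.71% (2.14% higher and 1.57% lower in cKO), and of the 5450 genes with a mean of 30 CPM or more, 5.71%. The adjusted p-values of the members lay between 0.372 and 0.995. Before adjustment, 0 members had a p-value under 0.05 with DESeq2, 0 with edgeR and 1, Kmt2d, with limma voom, and edgeR and limma voom called 0. Over the 11625 genes these shares were 13.5%, 15.6% and 15.8%. The log2 fold changes ran from -0.14 for Kmt2d to 0.21 for Dpy30, with 6 above and 4 below 0. Their median was 0.02, beside 0.00 over all 11625 genes. In bulk libraries, fewer cells of a type cannot be told apart from less RNA made per cell.

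**Figure D1:**
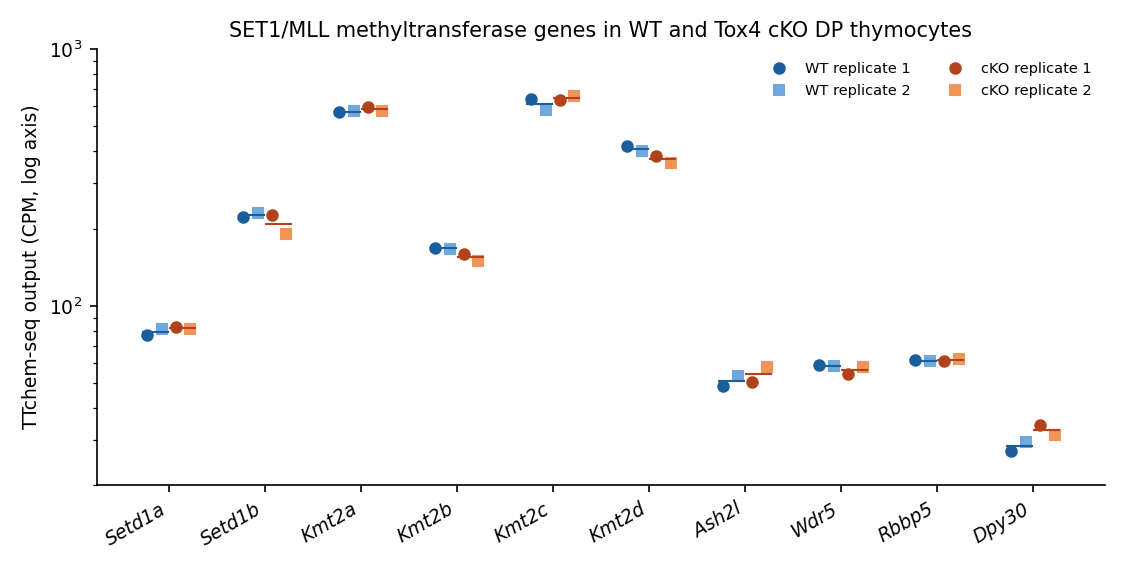
Output of the 10 methyltransferase genes in each library, in CPM on a log axis; circles and squares are replicates 1 and 2, blue is WT, orange is cKO, and horizontal lines are genotype means. For each gene the 4 libraries lie close together on this axis, from 27.2 to 34.3 CPM for Dpy30 and from 582 to 655 CPM for Kmt2c.

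Neither SET1 enzyme gene was called. Setd1a spans 127777389 to 127800119 on the plus strand of chromosome 7 (GRCm38, as all positions) in 19 exons. It had 76.8 and 81.5 CPM in WT and 82.6 and 81.5 CPM in cKO. The groups overlapped, and the log2 fold change was 0.05 (SE 0.10, adjusted p-value 0.895 with DESeq2). Setd1b (plus strand of chromosome 5, 123142193 to 123168630, 17 exons) had 222 and 231 CPM in WT and 227 and 191 CPM in cKO. Here 1 cKO library lay inside the WT range and the other below it, so that the cKO libraries differed from each other by more (0.24 on the log2 scale) than the genotypes did (log2 fold change -0.12, SE 0.09, adjusted p-value 0.636 with DESeq2). Without cKO replicate 2 the log2 fold change of Setd1b was -0.01, and without cKO replicate 1 it was -0.24.

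Of the MLL1 and MLL2 genes, Kmt2a (chromosome 9, 44803355 to 44881274, minus strand, 36 exons) had more CPM than 98.0% of genes. It was counted at 570.0 and 573 CPM in WT and at 593 and 576 CPM in cKO. The cKO libraries were both higher, but by a narrow gap, with a log2 fold change of 0.03 (SE 0.07, adjusted p-value 0.914 with DESeq2). Kmt2b (chromosome 7, 30568855 to 30588726, minus strand, 37 exons) was at 169 and 166 CPM in WT and at 159 and 149 CPM in cKO. Its cKO libraries were both lower, the log2 fold change was -0.12 (SE 0.08), and the DESeq2 adjusted p-value was 0.561.

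The genes of the enhancer-associated enzymes had values of opposite sign, neither past the test. Kmt2c (chromosome 5, 25271795 to 25498783, minus strand, 59 exons) had 639.6 and 582 CPM in WT and 633 and 655 CPM in cKO. These groups overlapped, since WT replicate 1 lay between the cKO libraries, and the log2 fold change was 0.07 (SE 0.08, adjusted p-value 0.764 with DESeq2). Kmt2d (chromosome 15, 98831669 to 98871205, minus strand, 55 exons) was at 418 and 401 CPM in WT and at 385 and 359 CPM in cKO. Both cKO libraries were lower, by -0.14 on the log2 scale (SE 0.07), which was larger than the difference within either genotype (0.06 in WT and 0.10 in cKO). Kmt2d had the lowest p-values of the group, with a DESeq2 p-value of 0.056 before and 0.372 after adjustment over all genes.

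The 4 core subunit genes were not called either. Wdr5 (chromosome 2, 27515147 to 27536538, plus strand), whose protein holds the enzyme in the complex, was counted at 58.7 and 58.2 CPM in WT and at 54.4 and 57.6 CPM in cKO. Rbbp5 (chromosome 1, 132477367 to 132505665, plus strand), which with ASH2L activates the catalytic domain, was at 61.6 and 60.7 CPM in WT and at 60.8 and 61.9 CPM in cKO. Rbbp5 was the most even gene of the group, with all libraries between 60.7 and 61.9 CPM and a log2 fold change of 0.00 (SE 0.10). The cKO libraries of Wdr5 were both below the WT libraries, with a log2 fold change of -0.06 (SE 0.10). Ash2l (chromosome 8, 25816001 to 25847694, minus strand) was at 48.5 and 53.3 CPM in WT and at 50.4 and 57.9 CPM in cKO, with overlapping groups and a log2 fold change of 0.09 (SE 0.12). Dpy30 (chromosome 17, 74299474 to 74323944, minus strand), the smallest subunit, which docks on ASH2L, was at 27.2 and 29.5 CPM in WT and at 34.3 and 31.3 CPM in cKO. Both cKO libraries of Dpy30 were higher. Its log2 fold change of 0.21 (SE 0.13, adjusted p-value 0.529 with DESeq2) was the largest of the group and rested on the fewest fragments.

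Without overlap between genotypes were 5 of the 10 members: Kmt2a and Dpy30 above and Kmt2b, Kmt2d and Wdr5 below in cKO. The same held for 48.9% of the 11625 genes, 24.9% with cKO higher and 24.0% with cKO lower. A genotype difference larger than the difference within either genotype was found for 3 members, Kmt2b, Kmt2d and Dpy30, beside 37.4% of the 11625 genes.

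The size of change that these data leave room for was given by the 95% Wald interval of each log2 fold change, which rests on 2 libraries of each genotype and on a spread estimated with the help of all genes. The interval lay inside a 1.2-fold change in both directions for 4 members, Setd1a, Kmt2a, Kmt2c and Rbbp5, compared with 17.5% of the 11625 genes and 37.3% of the genes with at least 30 CPM. For Kmt2a it ran from 0.930-fold to 1.12-fold and for Kmt2c from 0.951-fold to 1.17-fold. For Setd1b, Kmt2b, Kmt2d and Wdr5 the lower bound passed the 1.2-fold limit, the lowest being 0.812-fold for Setd1b. For Ash2l and Dpy30 the upper bound passed it, at 1.25-fold and 1.38-fold. For these 6 genes a change of 1.2-fold thus lay within the interval.

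**Figure D2:**
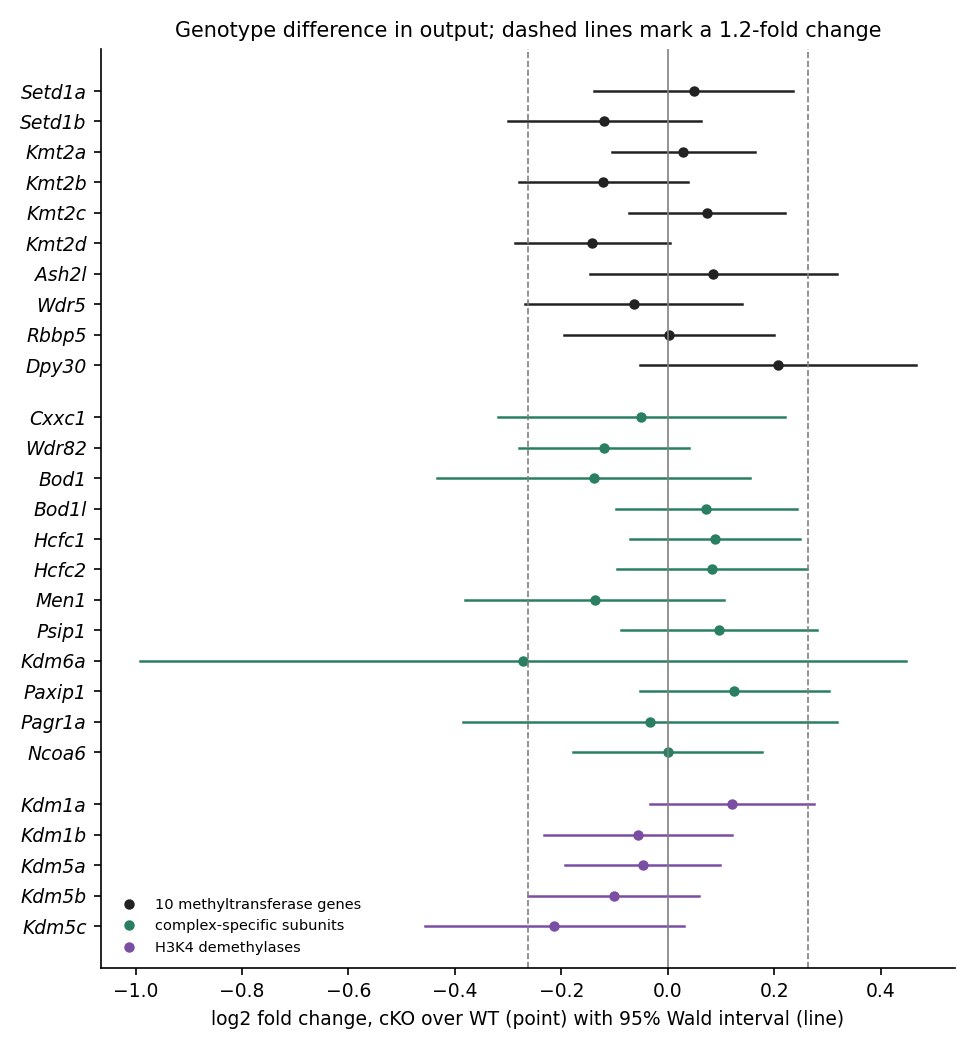
Log2 fold change of cKO over WT (points) with 95% Wald interval (lines) for the 10 methyltransferase genes, 12 complex-specific subunit genes and 5 of the 6 H3K4 demethylase genes (Y-linked Kdm5d left out); dashed lines mark a 1.2-fold change. The points of the methyltransferase genes lie between -0.14 and 0.21, and the widest interval shown is that of Kdm6a.

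Levels of different genes were compared per kb of the deposited gene length, introns included. The study's methods name gene counts of STAR, which cover exons, whereas the deposited counts were partly fractional, and which step made them is not given in the sources used here. If exons alone were counted, the order per kb would be another one, since exons make up between 4.53% (Dpy30) and 50.1% (Kmt2d) of these lengths. On this scale Kmt2d was highest, at 9.89 ± 0.639 CPM per kb (SD, n = 4 libraries), above 94.3% of the 11625 genes. It was followed by Setd1b (8.23 ± 0.679), Kmt2b (8.09 ± 0.433) and Kmt2a (7.42 ± 0.131 CPM per kb). The ranges of Setd1b and Kmt2b overlapped, and so did those of Kmt2b and Kmt2a, although Kmt2b was above Kmt2a in each of the 4 libraries. Setd1a (3.55 ± 0.114 CPM per kb) stood apart from both neighbours, with a density 2.09 times lower than that of Kmt2a. Kmt2c fell from the first place by CPM to the sixth per kb, at 2.76 ± 0.140, because its deposited length of 226989 bp, of which 7.41% is exonic, exceeded that of 96.5% of genes. The range of Kmt2c overlapped that of Wdr5 (2.68 ± 0.0910 CPM per kb). Rbbp5 (2.16 ± 0.0206), Ash2l (1.66 ± 0.129) and Dpy30 (1.25 ± 0.123 CPM per kb) followed, each apart from the next. The median over all genes was 1.46 CPM per kb, so that with the deposited lengths Dpy30 alone lay below it.

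**Figure D3:**
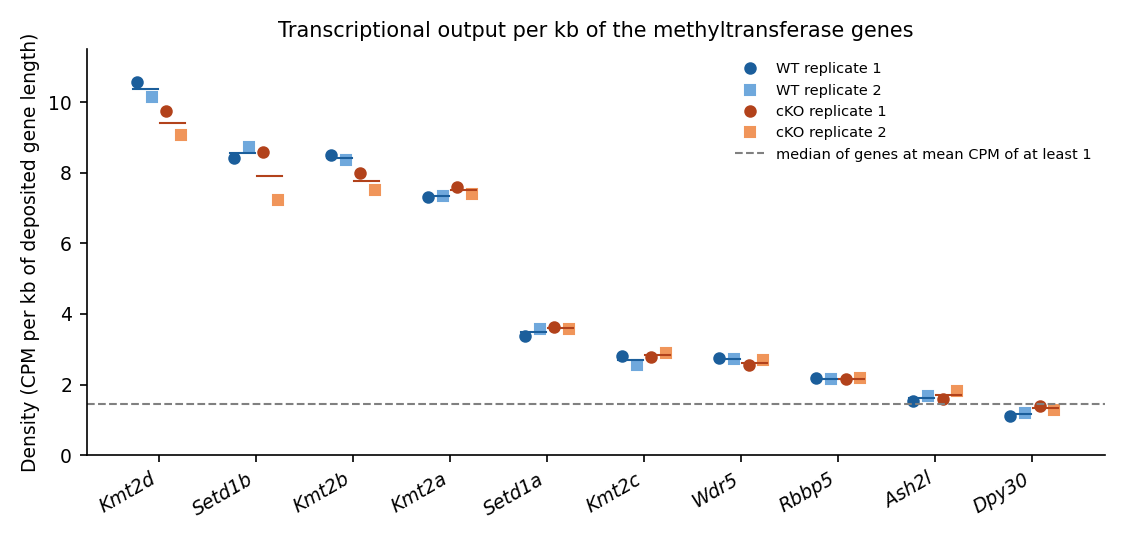
Output per kb of deposited gene length in each library, in order of the mean; symbols and colours as for CPM, horizontal lines are genotype means and the dashed line is the median of the 11625 genes with a mean of at least 1 CPM, 1.46 CPM per kb. Kmt2d, Setd1b, Kmt2b and Kmt2a lie above 7 CPM per kb in every library, and the other members below 4.

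The separation of the genes at the lower end depended on which start site bounds the gene, while the order of their means did not. For Ash2l and Dpy30 a single distal start lengthened the deposited interval, from 24787 to 31694 bp and from 16960 to 24471 bp. Without it, a length chosen after the data were seen, Ash2l was at 2.12 and Dpy30 at 1.80 CPM per kb. The range of Ash2l (1.96 to 2.34) then overlapped those of Rbbp5 and Dpy30.

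The promoter windows of 4 starts are shown for the ends of these orders: the longest member, the densest member, and the distal and a proximal start of Dpy30. The distal start bounds the deposited length of Dpy30, whereas the proximal start shown bounds neither of the lengths used above. Each holds 250 bases before and 50 after an annotated start, from RefSeq on GRCm38.p6, read 5′ to 3′ on the gene's strand, with the dinucleotide CpG in capitals. They are Kmt2c (chr5:25498734-25499033, minus strand), Kmt2d (chr15:98871156-98871455, minus strand), Dpy30 distal (chr17:74323895-74324194, minus strand) and Dpy30 proximal (chr17:74316162-74316461, minus strand).
Kmt2c: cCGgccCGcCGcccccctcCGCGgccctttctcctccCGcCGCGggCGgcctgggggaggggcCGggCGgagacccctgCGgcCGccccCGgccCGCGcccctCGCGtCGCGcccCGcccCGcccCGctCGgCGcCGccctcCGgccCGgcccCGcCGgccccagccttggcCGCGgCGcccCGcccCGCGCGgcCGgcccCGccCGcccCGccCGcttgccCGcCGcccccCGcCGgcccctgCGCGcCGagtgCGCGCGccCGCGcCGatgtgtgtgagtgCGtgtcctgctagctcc
Kmt2d: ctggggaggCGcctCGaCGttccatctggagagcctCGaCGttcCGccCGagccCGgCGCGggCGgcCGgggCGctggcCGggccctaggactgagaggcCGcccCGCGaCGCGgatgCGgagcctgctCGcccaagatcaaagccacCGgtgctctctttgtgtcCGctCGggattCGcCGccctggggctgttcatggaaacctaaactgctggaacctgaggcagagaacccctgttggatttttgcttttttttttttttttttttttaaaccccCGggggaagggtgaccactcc
Dpy30 distal: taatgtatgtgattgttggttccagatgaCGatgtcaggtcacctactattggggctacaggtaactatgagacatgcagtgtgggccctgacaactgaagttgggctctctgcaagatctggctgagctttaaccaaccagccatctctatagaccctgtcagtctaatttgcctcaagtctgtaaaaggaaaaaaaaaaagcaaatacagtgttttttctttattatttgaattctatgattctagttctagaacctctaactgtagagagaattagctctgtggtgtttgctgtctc
Dpy30 proximal: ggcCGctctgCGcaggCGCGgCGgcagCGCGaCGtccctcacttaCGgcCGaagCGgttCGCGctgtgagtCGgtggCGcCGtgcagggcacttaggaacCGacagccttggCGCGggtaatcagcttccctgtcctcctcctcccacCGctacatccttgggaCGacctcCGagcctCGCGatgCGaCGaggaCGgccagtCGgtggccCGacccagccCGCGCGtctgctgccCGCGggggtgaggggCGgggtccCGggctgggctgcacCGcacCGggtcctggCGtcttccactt

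Windows of 7 of the 10 members (10 starts) were examined, and Setd1b, Kmt2b and Ash2l were not among them. Windows of members on chromosome 8, where Ash2l lies, were left out. The Kmt2c window held 56 CpG, more than 99.8% of the 32851 promoters in the table. The Dpy30 distal window held 1 CpG and the proximal window 39. The other windows held between 16 (Rbbp5) and 36 (Kmt2a), beside a median of 7 over all promoters. On either strand, TATAAA was in 0 of the 10 windows (13.6% of all promoters), CCAAT in 1 (37.4%), GGGCGG in 5 (35.7%) and CCGGAA in 1 (14.9%). These are matches of letters only. The start of the Kmt2a window lay 15 bp from that of the deposited interval, and the other starts coincided with an annotated one. No other gene of the count table overlapped a member. RefSeq has 1 gene on the other strand that overlaps Kmt2a (Gm39326) and 2 within Kmt2c (Hspe1-ps3 and Gm18343). None of these 3 was a gene of the table, and whether their reads were kept apart by strand was not stated.

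The summed output of the enzyme genes was even between libraries. The 6 genes together had 2096 and 2034 CPM in WT and 2079 and 2012 CPM in cKO, and the 4 core genes 196 and 202 CPM in WT and 199.9 and 209 CPM in cKO. Both pairs of groups overlapped. Within the enzyme sum, Kmt2d made up 19.8 ± 0.175% in WT and 18.2 ± 0.487% in cKO, Kmt2b 8.11 ± 0.0817% and 7.54 ± 0.159%, and Kmt2a 27.7 ± 0.685% and 28.6 ± 0.0778% (SD, n = 2). These 3 of 6 shares did not overlap between genotypes, as the CPM of 48.9% of the 11625 genes did not. The shares of Kmt2c (29.6 ± 1.35% and 31.5 ± 1.51%), Setd1b (10.97 ± 0.513% and 10.2 ± 0.990%) and Setd1a (3.84 ± 0.242% and 4.01 ± 0.0517%) overlapped.

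Related enzyme genes were also compared as ratios within a library, which do not depend on scaling between libraries. The ratio of Kmt2c to Kmt2d fragments was 1.53 and 1.45 in WT and 1.64 and 1.83 in cKO. That of Kmt2a to Kmt2b was 3.38 and 3.45 in WT and 3.73 and 3.85 in cKO, and that of Setd1a to Setd1b was 0.346 and 0.354 in WT and 0.365 and 0.426 in cKO. In all 3 pairs the cKO libraries were both higher, which was also so, in either direction, for 48.0% of all pairs of the 11625 genes. The differences on the log2 scale were 0.22, 0.15 and 0.17, in the same order. The exact permutation test (two-sided) gave p = 0.333 for each pair before and after adjustment over the 3. This is the smallest value that 2 against 2 libraries allow, so the test could not have passed 0.05 and the ratios are a description. In both Kmt2 pairs the first gene was the longer one, whereas Setd1a was shorter than Setd1b. With a trend on gene length removed, a setting chosen for the ratios after the data were seen, the differences were 0.19, 0.11 and 0.17. Without cKO replicate 2 that of Setd1a to Setd1b was 0.06.

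**Figure D4:**
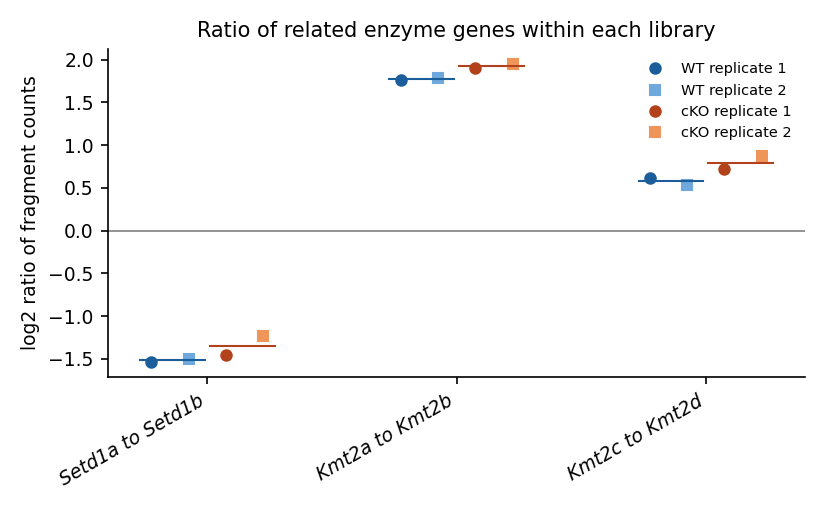
Log2 ratio of the fragment counts of related enzyme genes within each library; symbols and colours as for CPM, horizontal lines are genotype means. In each pair both cKO points lie above both WT points, by differences of the means of 0.17, 0.15 and 0.22 from left to right.

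The subunits that tell the complexes apart were not called. Of the 12 complex-specific genes examined (Cxxc1, Wdr82, Bod1, Bod1l, Hcfc1, Hcfc2, Men1, Psip1, Kdm6a, Paxip1, Pagr1a and Ncoa6), DESeq2, edgeR and limma voom called 0, and 0 had an unadjusted p-value under 0.05 with any of these tests. Their median log2 fold change was -0.02, with adjusted DESeq2 p-values between 0.567 and 0.999. Wdr82, shared by the SET1 and the PTW/PP1 complexes, was counted at 149 and 151 CPM in WT and at 137 and 139 CPM in cKO. Its groups did not overlap, with a log2 fold change of -0.12 (SE 0.08, adjusted p-value 0.567 with DESeq2). The gene of the phosphatase scaffold PNUTS, Ppp1r10, was at 143 and 147 CPM in WT and at 179.6 and 165 CPM in cKO. With a log2 fold change of 0.24 (SE 0.08), it was not called either (adjusted p-value 0.0794 with DESeq2). Besides Kdm6a, the largest value among the 12 was that of Bod1, at -0.14 (SE 0.15). The MLL1 partners Men1, which encodes menin, and Psip1 were at -0.14 (SE 0.12) and 0.10 (SE 0.09).

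Kdm6a and the demethylase genes Kdm5c and Kdm5d moved with the sex pattern of the libraries. KDM6A is a subunit of the MLL3 and MLL4 complexes that removes H3K27 methylation, and its X-linked gene, like Kdm5c, is known to escape X inactivation. Kdm6a had 266 CPM in WT replicate 1, against 156, 174 and 176 CPM in WT replicate 2, cKO replicate 1 and cKO replicate 2. Kdm5c had 139 CPM in WT replicate 1, against 102, 107 and 101 CPM in the others, whereas the Y-linked gene Kdm5d had 0.305 CPM (13 fragments) in WT replicate 1, against 33.9, 35.6 and 37.6 CPM in the others. Uty, the Y-linked relative of Kdm6a, had 0.962 CPM in WT replicate 1, against 160.0, 174 and 187 CPM in the others. The other X-linked genes of the lists, Hcfc1 (192, 204, 218 and 204.5 CPM) and Phf8 (134, 127, 129 and 131 CPM), did not set WT replicate 1 apart in this way. The log2 fold change of Kdm6a was -0.27 (SE 0.37, adjusted p-value 0.836 with DESeq2) with all libraries, 0.15 without WT replicate 1, and -0.60 without WT replicate 2, where it was called (adjusted p-value 3.71e-07 with DESeq2). For Kdm5c these values were -0.21 (SE 0.12, adjusted p-value 0.463 with DESeq2), 0.02 and -0.42, the last again called (adjusted p-value 0.0127 with DESeq2). The genotype values of these genes thus turned on which WT library was kept.

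**Figure D5:**
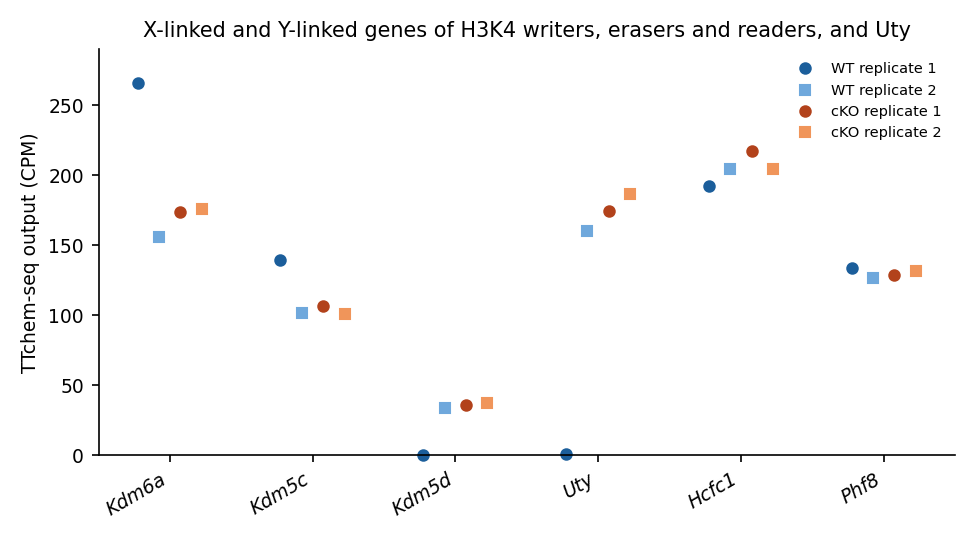
Output in CPM of X-linked (Kdm6a, Kdm5c, Hcfc1, Phf8) and Y-linked (Kdm5d, Uty) genes in each library; symbols and colours as for CPM. WT replicate 1 is high for Kdm6a (266 CPM) and Kdm5c (139 CPM) and near 0 for Kdm5d and Uty, and lies with the other libraries for Hcfc1 and Phf8.

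The erasers and readers of the mark were not called either. Of the 6 H3K4 demethylase genes (Kdm1a, Kdm1b, Kdm5a, Kdm5b, Kdm5c and Kdm5d), DESeq2, edgeR and limma voom called 0, and before adjustment 0 (DESeq2), 0 (edgeR) and 1 (limma voom, Kdm5d) had a p-value under 0.05. Kdm1a (LSD1) was at 167 and 164 CPM in WT and at 184 and 177 CPM in cKO, a log2 fold change of 0.12 (SE 0.08). Among 12 genes whose proteins bind methylated or unmethylated H3K4 tails or act with them, none was called (0 with DESeq2, edgeR and limma voom, and 0 at an unadjusted p-value under 0.05). The largest values were 0.21 (SE 0.13) for Ing5 and 0.12 (SE 0.07) for Chd1, and 9 of the 12 were above 0, with a median of 0.05. Rag2, the recombinase subunit that binds H3K4me3 through its PHD finger, had 36.9 and 47.01 CPM in WT and 46.2 and 41.5 CPM in cKO, with overlapping groups (log2 fold change 0.06, SE 0.14).

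Among 8 known targets of MLL1 and menin, 4 were below 1 CPM in the mean: Hoxa7, Hoxa9, Hoxa10 and Meis1, none of them above 0.349 CPM in any library. Pbx3, a homeodomain partner of HOX proteins, was the only gene of the 8 that was called. DESeq2 called 3.71% of the 11625 genes with a mean of at least 1 CPM, and Pbx3 is named here for its values. It rose from 11.03 and 11.6 CPM in WT to 25.5 and 21.6 CPM in cKO, by 1.05 on the log2 scale (SE 0.17), with adjusted p-values of 1.59e-07 with DESeq2 and 0.0336 with edgeR. The remaining 3 were not called: Mef2c, which independent filtering left without an adjusted p-value, the G1 inhibitor gene Cdkn1b and Cdkn2c had log2 fold changes of 0.10 (SE 0.54), -0.07 (SE 0.08) and 0.26 (SE 0.24). Binding of menin or MLL1 and H3K4 methylation were not measured in these libraries.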

How the data were processed

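TTchem-seq libraries of DP thymocytes from 2 WT and 2 cKO mice were placed in groups by sample title. The authors deposited 1 table of expected counts (fragments per gene), of which 8.61% were fractional, and a gene length in bp, introns included. Whether fragments in introns were counted is not given in the sources used here, and the methods name STAR gene counts, which cover exons. Per the study's methods, reads were filtered with fastp and aligned with STAR to GRCm38; the submitters' processing notes name fastp 0.13.1, STAR 2.7.9a and featureCounts 1.6.1. Strand use and removal of duplicates were not stated for the table, yeast spike-in was not used for scaling, and fragments are not independent molecules.

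The deposited expected counts were rounded for tests. CPM were computed from library totals, and per kb with the deposited length. Replicates differed by more than counting noise (chi-square per degree of freedom 40.7 in WT and 30.7 in cKO), and p-values measure the spread between 2 libraries of each genotype. Following the study's methods, genotypes were compared with the Wald test of DESeq2 1.42.0 (R 4.3.3), default size factors and filtering target 0.1, unshrunken log2 fold changes, over all genes. Alternatives were edgeR 4.0.16 and limma 3.58.1 voom (both on the 13802 genes kept by filterByExpr), other factors and filters, a loess length trend removed, X and Y genes left out, the replicate block and leaving out each library. Ratios within libraries were tested with the exact permutation test in scipy 1.17.1. Procedures were tested on simulated data. The members, lists and rules were chosen with earlier results of these data known. Named were all members, Tox4, called genes of the subunit, demethylase and reader lists with the 2 largest changes in each, and sex-linked list genes; Wdr82, Ppp1r10, Men1, Psip1, Kdm1a, Rag2 and the MLL1-menin targets were named besides. Promoter sequences were those of RefSeq on GRCm38.p6. A marker gene of mature single positive cells is not reported here.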

Additional observations from a re-analysis of the deposited data

How the results depend on the processing

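The call of 0 members held in every alternative that kept all 4 libraries. The lowest adjusted p-value of a member there was 0.183 (DESeq2, length trend removed). These alternatives called between 28 and 449 genes in all. Those without the CPM or the fold change criterion used the main fit and could not call a member, as its lowest DESeq2 adjusted p-value was 0.372. The median log2 fold change of the members, 0.02, was -0.023 with the length trend removed and ranged from -0.0099 to 0.020 without 1 library. With the length trend removed, the values of Kmt2a and Rbbp5 turned to -0.023 and -0.023. Without 1 library, those of Setd1a ranged from -0.0016 to 0.099, of Ash2l from -0.023 to 0.19 and of Rbbp5 from -0.014 to 0.023, and no other member changed direction. Outside the members, Kdm6a ranged from -0.60 to 0.15 and Kdm5c from -0.42 to 0.021.

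Calls among complex-specific subunits ranged from 0 to 1 (Kdm6a) and among demethylases from 0 to 2 (Kdm5c and Kdm5d), in each case without WT replicate 2, which leaves WT replicate 1 as the only WT library and assumes that it varies like the cKO libraries. Readers stayed at 0. The ratios kept their direction, from 0.061 to 0.285 for Setd1a to Setd1b, 0.126 to 0.175 for Kmt2a to Kmt2b and 0.142 to 0.294 for Kmt2c to Kmt2d without 1 library.

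The 431 calls over all genes fell to 58 with edgeR and 61 with limma voom, and were 184 without WT replicate 1, 446 without WT replicate 2, 126 without cKO replicate 1 and 89 without cKO replicate 2. The cause was not tested. Of the 431 calls, 249 were higher and 182 lower in cKO. With the length trend removed these numbers were 204 and 209, and with edgeR 48 and 10. The fall of Tox4, -0.31, missed the threshold with edgeR (-0.31), limma voom (-0.31), total count factors (-0.31) and independent filtering off (-0.31), and without 1 library (-0.34 to -0.28). Same-numbered libraries were not treated as paired in the main test. The sample titles state no pairing, and the correlation of the deviations of these libraries (-0.03) cannot show whether they were paired. With the replicate block, DESeq2 called 193 and edgeR 28 genes, Tox4 was at -0.31 and -0.31 and not called, and Pbx3 was at 1.05 with an edgeR adjusted p-value of 0.0612.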
